A study of Homo sapiens with 13 samples.

Results

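The 10 genes described here code for factors of pluripotent cells other than SOX2, NANOG and POU5F1 (OCT4): the transcription factors PRDM14, ZSCAN10, SALL4 and ZFP42, the chromatin proteins DPPA2, DPPA4 and UTF1, and the RNA-binding proteins LIN28A, LIN28B and L1TD1. They were chosen by symbol from the 61546 features of the count tables, and all 10 were found in both experiments and averaged at least 1 CPM in each. Human embryonic stem cells of the RUES2 line carrying a GFP::SMAD4 fusion at the endogenous locus were profiled by bulk RNA-seq in 13 libraries. The time series held 7 libraries of rRNA-depleted RNA: 2 at 0 h and 1 each at 4, 12, 20, 28 and 42 h of treatment with 100 ng/mL BMP4, 5 µM IWP2, which blocks Wnt secretion, and ROCK inhibitor (RI). The labels of the 0 h libraries name this treatment too, and they were taken as cells at its start. The dose response held 6 libraries of polyA-selected RNA at 5 h: 5 with BMP4, IWP2 and RI at those doses with LDN-193189 (LDN), which inhibits BMP type I receptors, at 0, 10, 30, 100 or 300 nM, and 1 of untreated cells in mTeSR. The experiments address how expression changes over the course of BMP-driven amnion-like differentiation and with the level of BMP signaling.

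Pluripotent cells are held in their state by a core of SOX2, NANOG and POU5F1 together with a wider set of factors. PRDM14 is a PR domain and zinc finger repressor of pluripotent and primordial germ cells, SALL4 a spalt-like zinc finger protein, ZSCAN10 a SCAN domain zinc finger protein and ZFP42 (REX1) a zinc finger relative of YY1. DPPA2 and DPPA4 are neighbouring paralogs whose proteins bind chromatin together through SAP domains, and UTF1 is a chromatin protein of undifferentiated cells. LIN28A and LIN28B block the maturation of let-7 miRNAs, and L1TD1 is an RNA-binding protein that derives from a LINE-1 element.

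Library totals were 37957385 to 71333471 counts in the time series, 28742690 to 33989998 with BMP4 in the dose response and 15600931 in the untreated library. The mitochondrial share was 2.01% to 7.60%, 4.22% to 4.49% and 7.89% in the same order. Levels are given as CPM, counts scaled to these totals, and for members above 10 CPM the 95% counting interval was within 11.3% of the value. Such intervals cover counting error only. Percentages of the 0 h level are on this CPM scale, while the edgeR slopes and log2 changes used TMM factors. Of the marker genes, POU5F1, SOX2, NANOG, DNMT3B and TDGF1 summed to 4160 and 4786 CPM at 0 h and to 1808 CPM at 42 h, while 10 amnion markers (such as GATA3, ISL1 and HAND1) went from 36.5 and 44.1 CPM to 7145 CPM. Markers of primitive streak and mesoderm (5 genes, TBXT at most at 0.294 CPM) summed to 3.19 CPM or less at 0 h and to at most 8.51 CPM later. Over the time series, endoderm markers (5) summed to 3.80 to 9.32 CPM, neural ectoderm markers (5) to 0.850 to 3.22 and primordial germ cell markers (6) to 16.6 to 70.7, most of it KIT. Fibroblast markers (5) summed to 138 to 283 CPM, nearly all of it COL1A1 and COL1A2. The other 3 (COL3A1, DCN and LUM) were under 1 CPM in every library. Markers of the labelled cell type were thus present at 0 h, and the amnion markers summed higher at 42 h, when 7 of the 10 members were called lower than at 0 h and LIN28A, LIN28B and ZFP42 were not. The part of this shift in cell type in the values of the members was not tested. In bulk RNA, fewer cells that express a gene and less RNA of it per cell cannot be told apart.

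Compared per length, LIN28A was the most abundant of the 10 at 0 h and DPPA2 the least. The authors' FPKM at 0 h (mean ± SD, n = 2) was 846 ± 13 for LIN28A, 488 ± 147 for DPPA4, 298 ± 34.8 for ZSCAN10, 188 ± 19.8 for L1TD1 and 129 ± 2.12 for SALL4. It was 79.4 ± 7.38 for ZFP42, 47.5 ± 4.56 for LIN28B, 30.1 ± 3.70 for PRDM14, 15.8 ± 0.530 for UTF1 and 1.74 ± 0.156 for DPPA2. No neighbours in this order overlapped in the 2 libraries, but 2 libraries allow no test. In the untreated polyA library the order differed in part, with 500.0 FPKM for LIN28A, 389 for DPPA4, 381 for L1TD1, 161 for ZSCAN10, 81.1 for ZFP42, 57.6 for SALL4, 48.0 for LIN28B, 37.1 for PRDM14, 8.04 for UTF1 and 3.75 for DPPA2. These libraries differ from those at 0 h in RNA kit and selection, so levels are compared within an experiment only.

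Over 42 h of BMP4 with IWP2 PRDM14 had fallen by 4 h, SALL4 and L1TD1 were first called lower at 42 h, and LIN28A, LIN28B and ZFP42 had no called trend. The trend with hours, tested with edgeR's quasi-likelihood test over the 15976 genes averaging 1 CPM or more, was downward for 7 of the 10 (PRDM14, UTF1, DPPA4, DPPA2, ZSCAN10, L1TD1 and SALL4) and upward for 0 (1, ZFP42, at an unadjusted p under 0.05, and 0 by DESeq2). Of all genes tested 17.5% were called lower and 19.2% higher. LIN28A, LIN28B and ZFP42 did not pass the test. The median slope of the 10 was −0.40 log2 units per 10 h against a median of −0.0011 over all genes tested. Times after 0 h had 1 library each, the error was taken from the scatter about the line, and the labels do not say whether the 2 libraries at 0 h came from separate cultures.

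**Figure D1:**
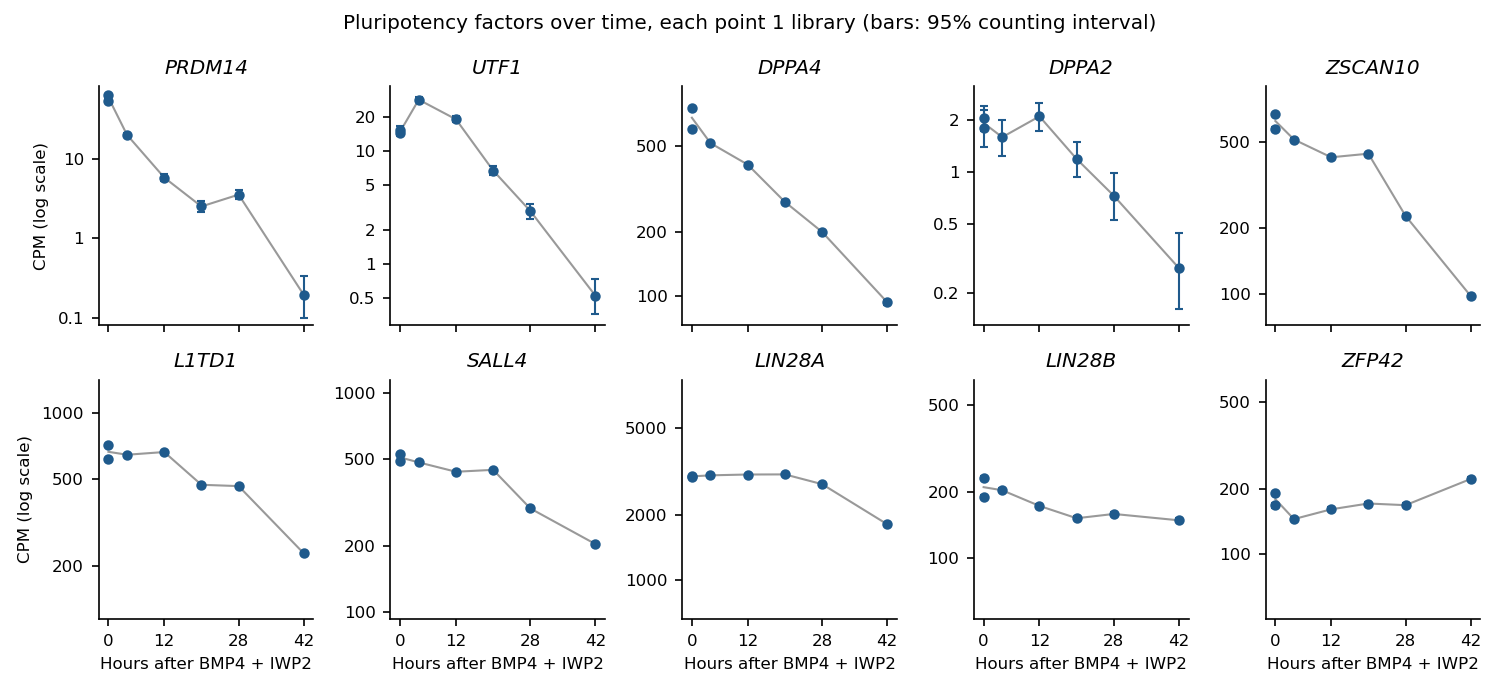
CPM of the 10 factors on log axes with a scale of their own (at least 8-fold high) against hours of BMP4 with IWP2; each point is 1 library with its 95% counting interval, and lines join the means. PRDM14 fell from 53.7 and 63.9 CPM to 0.196 CPM, while ZFP42 ended at 221 CPM, above both 0 h libraries.

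Among the transcription factors, PRDM14 (ENSG00000147596, chromosome 8, 70051651 to 70071693, GRCh38) was lost first and most. Its level was 53.7 and 63.9 CPM in 0 h replicates 1 and 2, then 20.0, 5.82, 2.53, 3.55 and, at 42 h, 0.196 CPM (12 counts). All 5 later libraries lay below both at 0 h, and 28 h was above 20 h with counting intervals that did not overlap. The slope was −1.65 ± 0.21 log2 units per 10 h (SE; edgeR adjusted p = 0.000776), and the level at 42 h was 0.334% of that at 0 h.

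ZSCAN10 (ENSG00000130182, chromosome 16, 3088890 to 3099295) was at 573 and 670.0 CPM at 0 h, then at 511, 424, 440.1, 228 and 98.1 CPM at 4, 12, 20, 28 and 42 h. It moved little between 12 and 20 h and fell in the last 2 intervals to 15.8% of its start. Its slope was −0.52 ± 0.08 log2 units per 10 h (edgeR adjusted p = 0.00163).

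SALL4 (ENSG00000101115, chromosome 20, 51782331 to 51802521) stood at 526 and 492 CPM at 0 h and at 483, 437, 446, 297 and 204 CPM in the later libraries in order. Most of its fall came after 20 h, and 40.1% of the 0 h level was left at 42 h. The slope was −0.24 ± 0.05 log2 units per 10 h (edgeR adjusted p = 0.00578).

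ZFP42 (ENSG00000179059, chromosome 4, 187995771 to 188005046) had 167 and 190.1 CPM at 0 h, then 145, 161, 171, 168 and 221 CPM. Only the 42 h library was above both 0 h libraries, and those at 4 and 12 h were below both. Its slope of 0.13 ± 0.05 log2 units per 10 h did not pass the test (edgeR adjusted p = 0.0879). It passed without 0 h replicate 2 (0.17 per 10 h, edgeR adjusted p = 0.0292).

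Among the chromatin proteins, DPPA4 (ENSG00000121570, chromosome 3, 109326144 to 109337546) fell at every step, from 757 and 604 CPM at 0 h to 518, 411, 275, 199 and 93.6 CPM. No later library reached the lower one at 0 h, and 13.8% of the mean was left at 42 h. With −0.61 ± 0.05 log2 units per 10 h it had the smallest p of the 10 over hours (edgeR adjusted p = 8.08e-05).

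DPPA2 (ENSG00000163530, chromosome 3, 109293788 to 109316517) was the lowest of the 10, with 1.79 and 2.05 CPM at 0 h (68 and 146 counts), then 1.59, 2.10, 1.19, 0.728 and, at 42 h, 0.278 CPM (17 counts). The first 4 libraries had overlapping counting intervals and the last 3 were lower than both at 0 h. Its slope was −0.55 ± 0.12 log2 units per 10 h (edgeR adjusted p = 0.00798). It missed the threshold against the square root of hours (edgeR adjusted p = 0.0592).

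UTF1 (ENSG00000171794, chromosome 10, 133230217 to 133231558) was highest at 4 h, where its value did not pass the test, and fell later. It was at 15.1 and 14.4 CPM at 0 h, then 28.2, 18.9, 6.68, 2.93 and, at 42 h, 0.523 CPM (32 counts). The 4 and 12 h libraries were above both at 0 h, and the last 3 were below. The slope over all times was −1.12 ± 0.20 log2 units per 10 h (edgeR adjusted p = 0.00393), and against the square root of hours UTF1 missed the threshold (edgeR adjusted p = 0.0860).

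Among the RNA-binding proteins, LIN28A (ENSG00000131914, chromosome 1, 26410817 to 26429728) stood above both 0 h libraries in CPM up to 20 h. It was at 3017 and 2966 CPM at 0 h and at 3025, 3052, 3055, 2756 and 1806 CPM later. On this scale only the 28 and 42 h libraries were below both at 0 h, and 60.4% was left at 42 h. With TMM factors, as in the test, the 0 h libraries were at 2968 and 2888 CPM. The 4 h library (2794 CPM) was then below both and the 12 h library (2900 CPM) between them. The slope of −0.08 ± 0.04 log2 units per 10 h did not pass the test (edgeR adjusted p = 0.172), while limma on log2(FPKM + 0.1) called it lower (−0.15 per 10 h, limma adjusted p = 0.0475).

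LIN28B (ENSG00000187772, chromosome 6, 104936616 to 105083332) was at 231 and 190.1 CPM at 0 h, then at 204, 173, 152, 159 and 148 CPM. The 4 libraries from 12 h on were below both at 0 h, with 70.5% left at 42 h. Its slope was −0.07 ± 0.04 log2 units per 10 h (edgeR adjusted p = 0.225). This call depended on the scaling: on library totals without TMM factors it was −0.13 with an adjusted p of 0.0330, where the median gene had a log2 ratio of −0.23 between 42 and 0 h against −0.01 with TMM factors. With limma on log2(FPKM + 0.1) LIN28B was called lower too (−0.13, limma adjusted p = 0.0314).

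L1TD1 (ENSG00000240563, chromosome 1, 62194849 to 62212328) was at 716 and 617 CPM at 0 h, 646 at 4 h and 665 at 12 h, then at 470.5, 464 and 228 CPM. In CPM the first 2 later libraries lay between those at 0 h, and 34.3% of the start was left at 42 h. With TMM factors the 4 h library (597 CPM) was below both at 0 h (704 and 600 CPM). Its slope was −0.27 ± 0.05 log2 units per 10 h (edgeR adjusted p = 0.00636).

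Of the 3 core factors, SOX2 and NANOG were called lower over hours and POU5F1 was not. SOX2 went from 389 and 375 CPM at 0 h to 242, 222, 149, 62.7 and 11.6 CPM and NANOG from 146 and 116 CPM to 148, 97.5, 43.0, 12.3 and 1.08 CPM, with slopes of −1.02 ± 0.12 and −1.46 ± 0.21 log2 units per 10 h (edgeR adjusted p = 0.000584 and 0.00147). POU5F1 was at 1003 and 1721 CPM at 0 h and at 1342, 1527, 1642, 1457 and 1145 CPM later, all within the range of the 2 libraries at 0 h (edgeR adjusted p = 0.750). As for POU5F1, no trend over hours was called for LIN28A, LIN28B and ZFP42.

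When each time was compared with 0 h, the members called lower increased from 1 to 7. At 4 h and at 12 h PRDM14 alone was called lower, with log2 changes of −1.64 ± 0.33 and −3.38 ± 0.37 (edgeR adjusted p = 4.91e-05 and 1.87e-17). Of all 15976 genes, 0.632% were called lower at 4 h and 2.64% at 12 h. DPPA4 (−1.27 ± 0.36, adjusted p = 0.00404) and UTF1 (−1.11 ± 0.33, adjusted p = 0.00625) joined PRDM14 at 20 h, when 6.01% of genes were called lower.

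At 28 h ZSCAN10 (−1.37 ± 0.37, edgeR adjusted p = 0.00137) and DPPA2 (−1.33 ± 0.51, adjusted p = 0.0455) were called as well, against 7.04% of all genes. DPPA2 at 28 h did not pass with DESeq2 (adjusted p = 0.331). At 42 h L1TD1 (−1.31 ± 0.37, edgeR adjusted p = 0.00167) and SALL4 (−1.08 ± 0.36, adjusted p = 0.00937) completed the 7, against 17.8% of all genes. LIN28A was at −0.49 ± 0.37, LIN28B at −0.27 ± 0.34 and ZFP42 at 0.55 ± 0.33, with edgeR adjusted p-values of 0.312, 0.575 and 0.190. The error in this fit came from the pair at 0 h alone (1 residual degree of freedom, moderated across genes), and each later library was assumed to vary like them.

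No member was called higher than at 0 h at any time, by edgeR or DESeq2. Of all genes, 4.39%, 7.04%, 12.4%, 13.3% and 19.9% were called higher by edgeR at 4, 12, 20, 28 and 42 h. The 1 member higher at an unadjusted p under 0.05 was UTF1 at 4 h, with a log2 change of 0.85 ± 0.30 (edgeR adjusted p = 0.0843). On library totals without TMM factors UTF1 passed at 4 h (0.94, edgeR adjusted p = 0.0367).

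The half-loss time, at which CPM first reached 50% of the 0 h mean by interpolation between libraries, gave the order of loss. It was 2.57 h for PRDM14, 15.8 h for DPPA4, 19.2 h for UTF1, 23.5 h for DPPA2, 24.2 h for ZSCAN10, 33.8 h for SALL4 and 34.5 h for L1TD1. SOX2, at 15.0 h, and NANOG, at 15.9 h, lay beside DPPA4. LIN28A, LIN28B, ZFP42 and POU5F1 did not reach 50% by 42 h. Over 6 settings (scaling, FPKM, linear interpolation and either 0 h library as the start) the range was 2.39 to 3.03 h for PRDM14, 13.6 to 18.2 h for DPPA4, 19.1 to 19.5 h for UTF1, 22.4 to 24.6 h for DPPA2 and 23.3 to 25.2 h for ZSCAN10. The ranges of SALL4, 32.6 to 38.9 h, and L1TD1, 33.1 to 37.0 h, overlapped and their order changed with the scaling. Since each interval between libraries was 4 to 14 h long, these times are interpolated and carry no test.

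**Figure D2:**
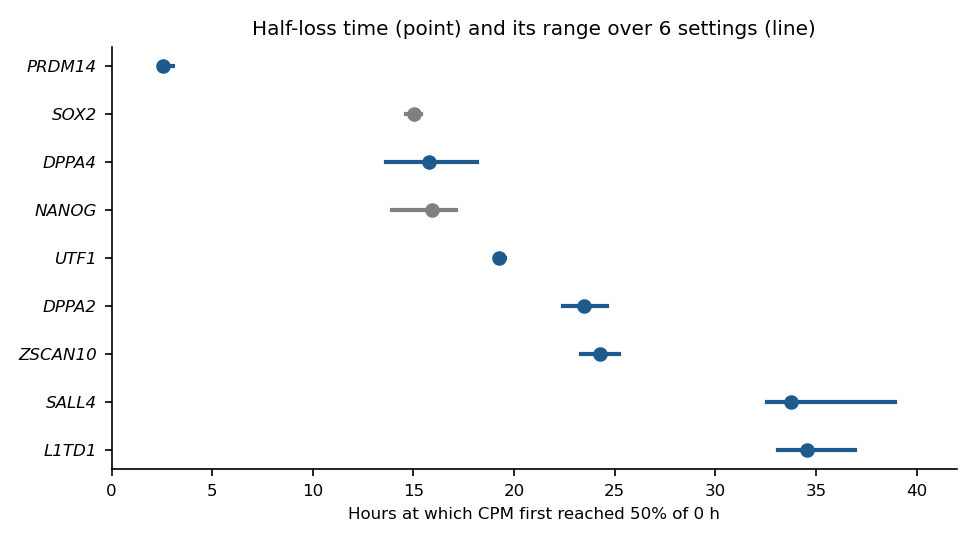
Hours at which CPM first reached 50% of the 0 h mean (points) and the lowest and highest value over 6 settings (lines), for the 7 members that reached it (blue) and SOX2 and NANOG (grey). PRDM14 stood alone at 2.57 h, DPPA4 to ZSCAN10 lay between 15.8 and 24.2 h, and SALL4 and L1TD1 at 33.8 and 34.5 h.

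Ordered by slope instead, from PRDM14 through UTF1, DPPA4, DPPA2, ZSCAN10, L1TD1, SALL4, LIN28A and LIN28B to ZFP42, few neighbours could be told apart. The order came from slopes in the same libraries as the tests. Neighbours are thus pairs with small differences, whose direction was largely set by the ranking. How many pairs passed is therefore no result about the members. The slope of the difference of log2(CPM + 0.5) between neighbours was tested with an exact permutation test over all 5040 orders of the 7 libraries, two-sided, with adjustment over the 9 pairs. SALL4 fell faster than LIN28A by 0.16 log2 units per 10 h (exact p = 0.00357, adjusted p = 0.0321), and LIN28B and ZFP42 diverged by 0.20 (exact p = 0.0131, adjusted p = 0.0393). Neither pair passed on log2(FPKM + 0.1), with adjusted p-values of 0.0857 and 0.0714 from the exact test. ZSCAN10 and L1TD1 differed by 0.25 and missed the threshold (exact p = 0.0262, adjusted p = 0.0529). PRDM14 and UTF1 (exact test, adjusted p = 0.334), UTF1 and DPPA4 (0.171), L1TD1 and SALL4 (0.643) and LIN28A and LIN28B (0.879) did not differ beyond the scatter of the libraries. DPPA4 and DPPA2 passed (exact test, adjusted p = 0.0393) and DPPA2 and ZSCAN10 missed (0.0529), but both values rested on the 0.5 CPM added to the low DPPA2 values: without it the exact test gave adjusted p-values of 0.824 and 0.824. Without it LIN28B and ZFP42 also missed the threshold (exact test, adjusted p = 0.0589).

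No change in the ratios of the paralogs held under each scale tried. The ratio of LIN28A to LIN28B in CPM was 13.1 and 15.6 at 0 h, then 14.9, 17.7, 20.2, 17.4 and 12.2, so that the 42 h library was lower than both at 0 h and the 20 h library was the highest. Its slope was −0.01 log2 units per 10 h (exact permutation test, p = 0.879, adjusted over 4 tests p = 0.879). For DPPA2 to DPPA4 the ratio was 0.00237 and 0.00339 at 0 h, then 0.00307, 0.00510, 0.00432, 0.00365 and 0.00297, so that the 42 h library lay between those at 0 h. With 0.5 CPM added, that ratio rose by 0.28 log2 units per 10 h (exact permutation test, p = 0.0115, adjusted p = 0.0460), and with nothing added by 0.04 (exact permutation test, p = 0.733, adjusted p = 0.883). Against LDN dose step the slopes, with 0.5 CPM added, did not pass. They were 0.006 log2 units per step for LIN28A to LIN28B (exact permutation test, adjusted p = 0.879). For DPPA2 to DPPA4 the slope was −0.12 (exact permutation test, p = 0.05, adjusted p = 0.1).

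The share of each gene in the summed level of the 10 per length differed between 0 and 42 h. Summed FPKM of the 10 was 2124 at 0 h and 858 at 42 h. LIN28A made up 39.9% of this sum at 0 h and 57.6% at 42 h, ZFP42 3.74% and 11.4%, LIN28B 2.24% and 3.81% and SALL4, which was called falling, 6.09% and 6.85%. The share of DPPA4 was 22.96% at 0 h and 7.22% at 42 h, and that of ZSCAN10 14.1% and 5.56%, and the other 4 genes had smaller shares at 42 h too. These shares have no test.

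With rising LDN, 4 of the 10 genes rose at 5 h and 0 fell. The trend with dose step, 0 to 4 for 0, 10, 30, 100 and 300 nM over the 5 libraries with BMP4, was tested with edgeR over the 14907 genes averaging 1 CPM or more, of which 10.4% were called higher and 10.9% lower. Of the members, 0 fell also at an unadjusted p under 0.05 and by DESeq2. The 4 were PRDM14, ZSCAN10, DPPA4 and ZFP42, and each of them was higher at every next dose. Each dose had 1 library, and the error again came from the scatter about the line. Untreated cells lacked BMP4 and IWP2 and are given as a value beside the doses.

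PRDM14 spanned the widest range of the 10. It was at 14.6 CPM without LDN and climbed to 25.2, 40.1, 63.1 and, at 300 nM, 76.3 CPM, against 73.1 CPM in untreated cells. The level without LDN was 20.0% of the untreated level and that at 300 nM 104% of it. Its slope was 0.59 ± 0.03 log2 units per step (SE; edgeR adjusted p = 1.1e-07), and 300 nM was 5.23-fold over 0 nM.

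ZSCAN10 went from 300.0 CPM without LDN to 367, 391, 412 and 420.5 CPM, with 342 CPM in untreated cells. The largest part of this rise came with the first 10 nM, and the 4 libraries with LDN all exceeded the untreated one. The slope was 0.12 ± 0.02 log2 units per step (edgeR adjusted p = 0.000426). With limma on log2(FPKM + 0.1) ZSCAN10 missed the threshold (0.11, limma adjusted p = 0.103).

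DPPA4 went from 496 CPM without LDN to 535, 549, 594 and 616 CPM, all below the 726 CPM in untreated cells. Its slope was 0.08 ± 0.01 log2 units per step (edgeR adjusted p = 4.53e-05). At 300 nM it stood at 84.8% of the untreated level.

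ZFP42 went from 206 CPM without LDN to 213, 222, 239.9 and 252 CPM, all above the 183 CPM in untreated cells. The slope was 0.08 ± 0.01 log2 units per step (edgeR adjusted p = 0.00011). Thus ZFP42 rose with LDN, while its value without LDN was not below that of untreated cells. With the untreated library placed after 300 nM, only PRDM14 and DPPA4 kept a called rise, and ZSCAN10 (0.06, edgeR adjusted p = 0.237) and ZFP42 (0.02, edgeR adjusted p = 0.748) did not.

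The other 6 genes did not pass. L1TD1 was at 1478, 1394, 1469.6, 1526 and 1534 CPM from 0 to 300 nM and at 1356 CPM in untreated cells (0.03 ± 0.01 log2 units per step, edgeR adjusted p = 0.0809). It passed without the 0 nM library (0.05, edgeR adjusted p = 0.00282) and with no filter on expression (0.03, edgeR adjusted p = 0.0263). SALL4 was at 245, 254, 257, 258 and 257 CPM and 235 CPM untreated (0.02 ± 0.01, edgeR adjusted p = 0.21). LIN28A was at 1847, 1879, 1898, 1863 and 1751 CPM and 1795 CPM untreated (−0.01 ± 0.01, edgeR adjusted p = 0.429).

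LIN28B was at 222 CPM without LDN and at 202 to 207 CPM at the 4 other doses, with 212 CPM untreated (−0.02 ± 0.01 log2 units per step, edgeR adjusted p = 0.301). DPPA2 ranged from 3.07 to 3.80 CPM with no order by dose and was at 4.17 CPM untreated (−0.04 ± 0.05, edgeR adjusted p = 0.61). UTF1 was at 10.8, 12.4, 12.8, 13.1 and 10.4 CPM, all above the 7.56 CPM untreated (−0.0004 ± 0.04, edgeR adjusted p = 0.995). The 95% intervals of the change from 0 to 300 nM along the fitted line were −0.14 to 0.04 log2 units for LIN28A, −0.18 to 0.03 for LIN28B and −0.01 to 0.17 for SALL4, and the wider −0.33 to 0.33 for UTF1 and −0.63 to 0.28 for DPPA2.

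**Figure D3:**
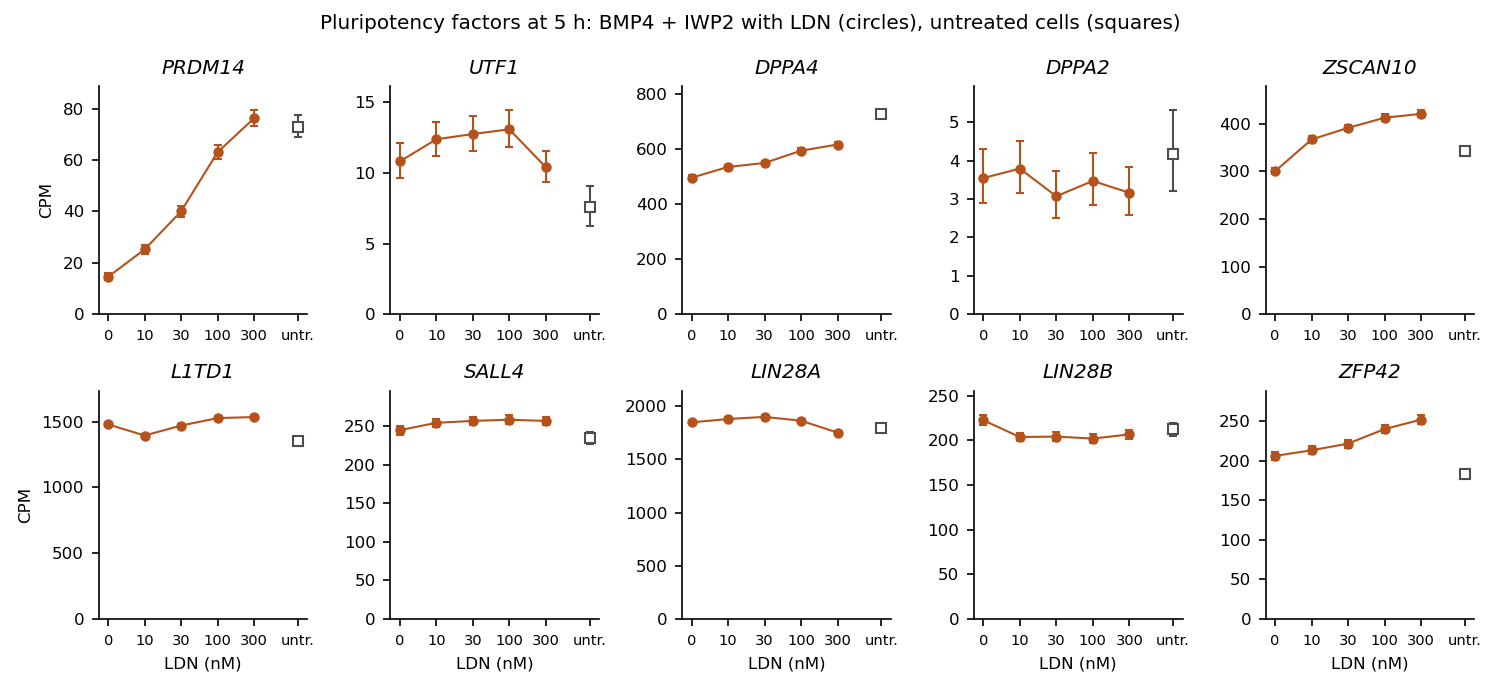
CPM of the 10 factors at 5 h against LDN dose (circles, 5 libraries with BMP4 and IWP2) and in untreated cells (open squares, 1 library), with 95% counting intervals and axes from 0. PRDM14 climbed from 14.6 to 76.3 CPM, while LIN28A, LIN28B and SALL4 varied by 7.76%, 9.22% and 5.26% of their highest value over the doses.

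Of the core factors, SOX2 rose with LDN, from 338 CPM without it to 428 CPM at 300 nM (0.09 ± 0.01 log2 units per step, edgeR adjusted p = 0.000405). Untreated cells had 348 CPM of SOX2, so that the level without LDN was 97.1% and that at 300 nM 123% of the untreated level. NANOG, at 90.6 to 101 CPM against 129 CPM untreated, and POU5F1, at 2319 to 2431 CPM against 1473 CPM untreated, did not pass (edgeR adjusted p = 0.232 and 0.621). In these 5 libraries the pluripotent markers summed to 4733 to 5798 CPM and the amnion markers to 49.7 to 290 CPM.

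To show the upstream sequence of 3 of the 4 members that rose with LDN, the 250 bases before the annotated start of DPPA4, ZSCAN10 and ZFP42 are given from RefSeq promoter windows on GRCh38.p14, in the direction of the gene. DPPA4 (chr3:109337547-109337796, minus strand) and ZSCAN10 (chr16:3099295-3099544, minus strand) rose with LDN and fell over time, and ZFP42 (chr4:187995521-187995770, plus strand) rose with LDN without a called fall. Capitals mark matches on either strand to 4 short motifs: the POU octamer ATGCAAAT, the SOX motifs CTTTGT and CATTGT, and GGCGCC, a palindromic motif bound by SMAD1 and SMAD5.
DPPA4: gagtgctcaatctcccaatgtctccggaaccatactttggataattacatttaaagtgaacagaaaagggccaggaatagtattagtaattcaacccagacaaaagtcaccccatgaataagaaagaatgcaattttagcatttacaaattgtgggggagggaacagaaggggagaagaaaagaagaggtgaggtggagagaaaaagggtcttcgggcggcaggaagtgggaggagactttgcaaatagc
ZSCAN10: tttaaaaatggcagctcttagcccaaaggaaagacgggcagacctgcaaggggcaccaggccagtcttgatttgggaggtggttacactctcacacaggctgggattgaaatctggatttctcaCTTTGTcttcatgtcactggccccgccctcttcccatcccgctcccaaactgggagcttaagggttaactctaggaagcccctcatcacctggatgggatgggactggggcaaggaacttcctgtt
ZFP42: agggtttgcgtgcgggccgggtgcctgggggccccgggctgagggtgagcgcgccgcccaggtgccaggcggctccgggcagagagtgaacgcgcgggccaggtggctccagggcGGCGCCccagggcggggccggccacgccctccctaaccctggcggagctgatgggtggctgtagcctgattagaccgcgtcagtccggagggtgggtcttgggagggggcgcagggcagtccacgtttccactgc
The DPPA4 window had no match, ZSCAN10 had 1 CTTTGT starting at −126 and ZFP42 1 GGCGCC starting at −135, counted from the start site, and no matches overlapped. Their GC content was 43.2%, 53.2% and 74.4%. Of 35116 promoter windows of the same length, 1.63% held ATGCAAAT, 13.7% CTTTGT, 9.29% CATTGT and 16.4% GGCGCC, so these matches are common and are given as a description. Of the other members with a window in the table, LIN28B had 1 CATTGT in the window of one start and 1 CTTTGT in that of another, and DPPA2, L1TD1 and UTF1 had none. No window is shown for PRDM14, LIN28A or SALL4.

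The trends with hours and with dose called different members in part. PRDM14, DPPA4 and ZSCAN10 passed both tests, falling with hours of BMP4 and rising with LDN. UTF1, DPPA2, L1TD1 and SALL4 passed over hours and not over dose, ZFP42 over dose and not over hours, and LIN28A and LIN28B passed neither test. Whether the response of a gene differed between the experiments was not tested.

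**Figure D4:**
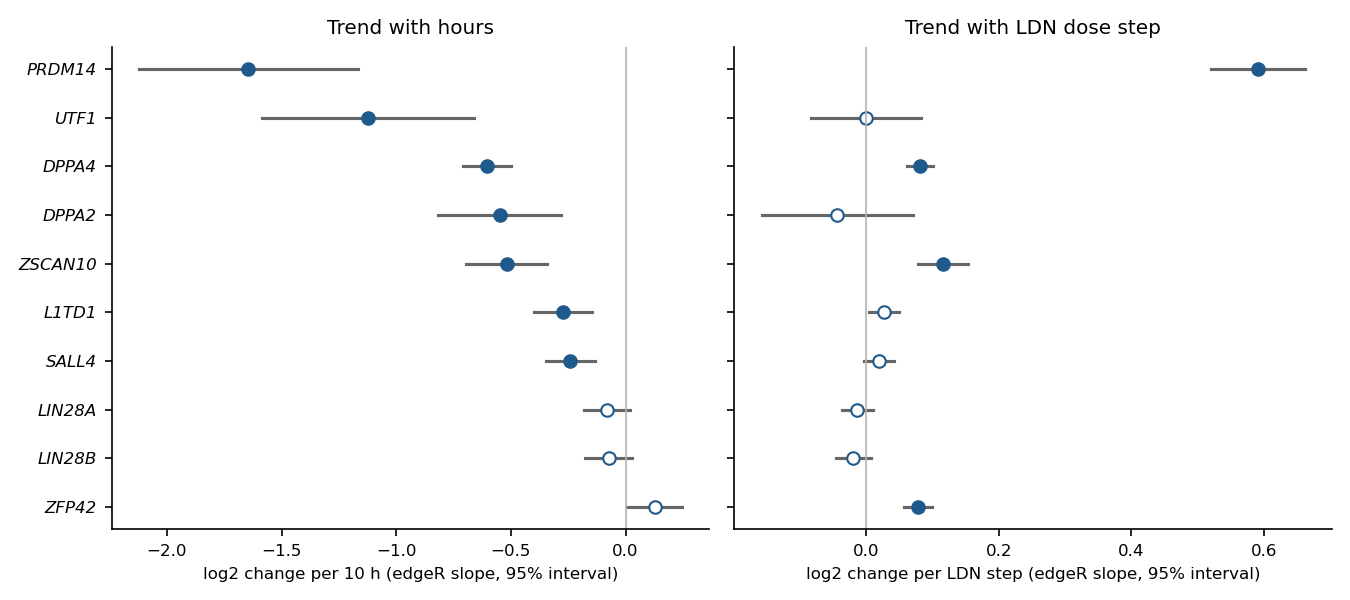
Slopes with hours (left, log2 units per 10 h) and with LDN dose step at 5 h (right, log2 units per step) with 95% intervals from edgeR. Filled points passed at an adjusted p under 0.05: 7 over hours, all negative, and 4 over dose, all positive, with PRDM14 outermost in both.

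The first hours of BMP4 were sampled in both experiments. From 0 h to 4 h the log2 ratio of CPM was −1.56 for PRDM14, −0.39 for DPPA4, −0.28 for ZSCAN10 and 0.94 for UTF1. Between the 5 h library without LDN and untreated cells it was −2.33, −0.55, −0.19 and 0.52 in the same order. In these ratios the 3 genes that passed both trends were lower and UTF1 higher after BMP4 with IWP2 and RI in either experiment. Apart from the untreated library, the libraries compared here also entered the trend fits, so these directions are no separate support. PRDM14 alone among these genes passed the test at 4 h. DPPA2 was lower in both experiments too (−0.27 and −0.23). The separate parts of BMP4, IWP2 and RI in these ratios were not tested. LIN28A stood at 0.02 and 0.04, and at −0.07 and −0.04 on TMM-scaled CPM, which left the directions of PRDM14, DPPA4, ZSCAN10 and UTF1 as they were. The median gene had a log2 ratio of 0.11 between the 5 h library without LDN and untreated cells on library totals and of 0.02 with TMM factors. The 5 h ratios compare 1 library with 1 and have no test, and the untreated library differed in depth and in mitochondrial share, whose part in these ratios was not tested. At 300 nM LDN, PRDM14, DPPA4, ZSCAN10 and UTF1 were at 104%, 84.8%, 123% and 138% of their untreated levels.

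Around the members, the 20 genes of the primed pluripotent state (listed with earlier results known) were mostly called lower: 16 were lower over hours and 0 higher (edgeR, also at an unadjusted p under 0.05), with a median slope of −0.77 log2 units per 10 h, and 14 were called higher with LDN dose and 2 lower, with a median of 0.08 per step. Of all genes tested, 17.5% were called lower and 19.2% higher over hours, and 10.4% higher and 10.9% lower with LDN. USP44, a deubiquitinase, fell from 181 ± 16.4 CPM at 0 h (SD, n = 2) to 1.60 CPM at 42 h (edgeR adjusted p = 9.03e-06). ZIC2, a zinc finger factor, fell from 231 ± 23.1 to 1.13 CPM (edgeR adjusted p = 0.00115). FOXD3, a forkhead factor, fell from 68.8 ± 15.2 to 0.490 CPM (edgeR adjusted p = 0.00444). The 4 without a call over hours were SFRP2, GDF3, CD24 and PODXL (edgeR adjusted p = 0.429, 0.433, 0.507 and 0.624), of which PODXL had a positive slope. GDF3 and PODXL were the 2 called lower with LDN, and these 4 are named after their values were seen.

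Genes of the naive pluripotent state were called in both directions. Of 13, 8 averaged 1 CPM or more over the 7 libraries and were tested over hours. Of these, 5 were called higher (KLF4, KLF5, TFCP2L1, ESRRB and TBX3) and 1 lower (NR5A2), with a median slope of 0.57 log2 units per 10 h. ESRRB and TBX3, at 0.372 and 0.608 CPM at 0 h, passed this filter only through later libraries where they were higher. The count called higher and the median thus depend in part on the filter. Of all genes tested, 17.5% were called lower and 19.2% higher over hours. TBX3, a T-box factor also found in amnion and mesoderm, rose from 0.608 ± 0.152 CPM at 0 h (SD, n = 2) to 702 CPM at 42 h (edgeR adjusted p = 0.000437). TFCP2L1, a grainyhead-like factor, went from 6.11 ± 1.24 CPM to 101 CPM at 28 h and 39.1 CPM at 42 h (edgeR adjusted p = 0.014). KLF5 went from 2.80 ± 0.924 CPM to 24.3 CPM at 28 h and 14.8 CPM at 42 h (edgeR adjusted p = 0.00477). KLF4 (17.5 CPM at 28 h, 12.3 CPM at 42 h) and ESRRB (1.95 CPM at 20 h, 1.45 CPM at 42 h) were also highest before 42 h, while TBX3 was highest at 42 h. With LDN, 6 of 8 tested were called lower and 1 (NR5A2) higher, with a median of −0.28 log2 units per step. Of all genes tested, 10.9% were called lower and 10.4% higher with LDN. TBX3, among those lower, passed the filter over dose through its 2.99 and 1.29 CPM at 0 and 10 nM. ZFP42, which is also used as a marker of the naive state, was at 124% of its 0 h level at 42 h in CPM. Its log2 change in the edgeR fit with TMM factors, 0.55, did not pass the test. It was called higher with LDN, where most of the tested naive genes were called lower.

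Of the LIN28 and let-7 axis, 1 gene passed over hours and 4 with LDN. Of 14 tested over hours, 0 were called lower by edgeR (3 at an unadjusted p under 0.05) and 1 higher, IGF2BP2, an RNA-binding protein and let-7 target (103 ± 13.6 CPM at 0 h, 142 CPM at 42 h, edgeR adjusted p = 0.00804), with a median slope of −0.05 log2 units per 10 h. With LDN 4 of 14 were called higher (HMGA2, IGF2BP3, MYCN and ARID3B) and 0 lower (6 and 1 at an unadjusted p under 0.05), with a median of 0.01 per step, where 10.4% of all genes were called higher. Both medians were near those over all genes tested, −0.0011 per 10 h and −0.0007 per step. Of all genes tested, 17.5% were called lower and 19.2% higher over hours, and 10.9% lower with LDN.

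Partners and paralogs of the members gave a mixed picture. Of 15, 4 were called lower over hours (JARID2, SALL2, YY1 and EZH2) and 1 higher (CBFA2T2), with a median slope of −0.11 log2 units per 10 h. With LDN 3 were called higher (JARID2, SALL2 and YY1) and 3 lower (SALL1, SALL3 and CBFA2T3), with a median of −0.01 per step. Of all genes tested, 17.5% were called lower and 19.2% higher over hours, and 10.4% higher and 10.9% lower with LDN. The counts of this list were not tested against these shares. SALL2, a paralog of SALL4, fell from 648 ± 112 CPM at 0 h (SD, n = 2) to 67.1 CPM at 42 h (edgeR adjusted p = 0.0102). JARID2, a Polycomb partner, fell from 514 ± 85.6 to 111 CPM (edgeR adjusted p = 0.000572), and YY1, a relative of ZFP42, from 142 ± 14.2 to 79.5 CPM (edgeR adjusted p = 0.0266).

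For each member, the genes with the most similar profile were sought by the root mean square difference of log2(CPM + 0.5) over all 13 libraries, centred within each experiment, among 11313 genes of at least 5 CPM in both. PRDM14 was nearest to LRAT (0.32) and SORBS2 (0.53), and UTF1 to NRXN2 and KIF5A (0.29 each). LRAT, a retinol acyltransferase, went from 41.5 CPM at 0 h to 0.523 CPM at 42 h and from 8.14 to 46.3 CPM between 0 and 300 nM LDN.

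The 2 genes nearest to DPPA4 included FLT1 (0.09). ZSCAN10 was nearest to SEPHS1 (0.12) and PNPLA5 (0.14), L1TD1 to HPRT1 (0.06) and ZNF883 (0.07) and SALL4 to ZNF749 and TTLL12 (0.07 each). DPPA2 was nearest to ENSG00000280893 and PAK1 (0.12 each), ZFP42 to COMMD1 (0.06) and NAGK (0.08) and LIN28A to INO80 and SEMA4D (0.06 each). For DPPA2 this rests on the 0.5 CPM added, which damps the fall of its low values. Its CPM at 42 h was 14.5% of that at 0 h. ENSG00000280893 went from 23.8 to 7.29 CPM and PAK1 from 142 to 53.3 CPM, both smaller falls. The 2 nearest to LIN28B included MIER3 (0.04). The libraries of an experiment share their preparation, and likeness is given as a description.

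Annotated copies and an antisense gene of the members were low. Of 12 pseudogene or antisense features of DPPA2, LIN28A, LIN28B and SALL4, 0 reached 1 CPM in any library, and the highest value was 0.813 CPM, that of LIN28B-AS1. The 4 pseudogenes of DPPA2, the lowest member at 0.278 to 4.17 CPM over the 13 libraries, reached at most 0.0263 CPM. How RSEM divided reads between a gene and its near copies was not tested.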

How the data were processed

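The 7 and 6 libraries of RUES2 cells each came with a count table and an FPKM table. Upstream, the authors used Cutadapt for trimming, STAR 2.7.8a for mapping to GRCh38 and RSEM 1.3.3 for the gene counts, per their methods and the submitters' processing notes. The release of the annotation is not given in the sources used here. The deposited expected counts are whole numbers without scaling for depth. The deposited FPKM values, scaled by the authors for length and depth, served to compare levels between genes and as an alternative. The 5 features that are not human genes took at most 0.0030% of the counts and entered no test. Gene positions are from GENCODE release 44.

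Groups were taken from the sample labels. Trends with hours (7 libraries) and with dose step (5 libraries with BMP4) and each time against 0 h were tested in R 4.3.3 by the quasi-likelihood method of edgeR 4.0.16 with TMM factors. P-values were adjusted by Benjamini-Hochberg over all genes averaging 1 CPM or more, with a threshold of 0.05. The procedure was tested on simulated counts with known changes and a fixed dispersion, which does not measure its error rate on these libraries. Neighbouring members and paralog ratios were compared with exact permutation tests over libraries, two-sided. With 5 libraries the smallest p is 0.0167. Depth is given as library totals, with exact binomial (Clopper-Pearson) intervals at 95% for CPM. DESeq2 1.42.0, limma 3.58.1, other scalings, filters and time scales and left-out libraries were alternatives, as was a fit against the SMAD4 level the study gives per dose. The comparisons with no pseudocount and the TMM-scaled ratios of the first hours were added after the data were seen.

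The members and all gene lists were chosen with earlier results of these data known. Genes named are the members, SOX2, NANOG and POU5F1, annotated copies reaching 1 CPM, up to 3 genes per list with the largest change from 0 to 42 h among those called over hours with a mean of at least 5 CPM, and the 2 genes most like each member, of which 1 each for DPPA4 and LIN28B is not reported here. Genes named only as part of a count of 5 or fewer were named after their values were seen. Other steps ran in Python 3.11.15 with scipy 1.17.1 for intervals, pandas 2.3.3 and numpy 2.4.6 for tables and matplotlib 3.10.9 for plots.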

Additional observations from a re-analysis of the deposited data

Results flagged for a closer look

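In the first hours of BMP4 the CPM ratios of ZFP42 and SALL4 had opposite signs in the 2 experiments, whichever 0 h library was used. The same held for the core factor NANOG, with log2 ratios of 0.18 in the time series and −0.51 in the dose response. For L1TD1 (−0.04 and 0.12), LIN28B (−0.05 and 0.07) and POU5F1 (−0.02 and 0.70) the signs differed on the 0 h mean, but not for each 0 h library. For ZFP42 the log2 ratio of CPM was −0.30 at 4 h over 0 h, with the 4 h library below both 0 h libraries, and 0.17 at 5 h without LDN over untreated cells. For SALL4 it was −0.0758, again below both 0 h libraries, and 0.0592. On TMM-scaled CPM, added after the data were seen, ZFP42 stood at −0.39 and 0.09, and SALL4 at −0.16 and −0.03, so that its signs no longer differed. Neither gene passed the test at 4 h. The difference between the experiments was not tested, the experiments differ in RNA kit and library type, and the 5 h ratio compares 1 library with 1.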

How the results depend on the processing

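The number of members falling over hours was 7 with DESeq2 size factors, the DESeq2 test, no filter and either 0 h library left out, 8 on library totals and 9 with limma on log2(FPKM + 0.1). It was 5 against the square root of hours, where UTF1 and DPPA2 were lost, and 4 without the 42 h library (PRDM14, UTF1, DPPA4 and ZSCAN10), so the calls of DPPA2, L1TD1 and SALL4 rested on that library. The number rising over hours was 0, and 0 to 1 with either 0 h library left out. The number rising with LDN was 4, was 4 to 5 with each dose left out and fell to 2 with the untreated library as a last step. It was 3 with limma on log2(FPKM + 0.1), where ZSCAN10 was lost, and 5 with no filter, where L1TD1 was added. On library totals 1 member, UTF1, was higher at 4 h than at 0 h. The DPPA2 to DPPA4 ratio against hours, at 0.28 log2 units per 10 h, dropped below the threshold on FPKM (0.13, exact test, adjusted p = 0.497) and with no pseudocount (0.0369, exact test, adjusted p = 0.883). For single genes and pairs there were 14 losses and 7 gains of a call over all alternatives and 0 reversals, and 6 half-loss times moved by more than the spread between the 0 h libraries. For the ratios of the first hours, 10 alternative values moved and 10 stayed the same. No paired analysis was possible because replicate numbers occur at 0 h only, so no groups share them. Depth limits DPPA2 throughout and PRDM14 and UTF1 at 42 h, which rest on 17, 12 and 32 counts. Later times and all doses have 1 library each.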
